A study of Mus musculus with 8 samples.

Results

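The mRNA of 9 receptors that guide lymphocytes into tissues, hold them there or let them leave was measured in cultured murine lung ILC2s. The genes were Cd44, Cd69, S1pr1, Ccr7, Ccr4, Ccr8, Cxcr4, Cxcr6 and Ccr9, picked by symbol from the 23183 genes counted in every library. ILC2s of C57BL/6 mice (wild-type C57BL/6J in the study's methods), enriched from the lungs of animals that had received IL-33, were cultured with IL-2, IL-7 and IL-33 at 10 ng/mL each before a 3 h treatment with either Yoda1 (5 µM, 4 libraries), a compound that opens the mechanosensitive ion channel Piezo1, or its vehicle DMSO (0.1%, 4 libraries). The study's methods give mice of both sexes, 6 to 10 weeks old, and both groups shared the genotype, the IL-33 exposure and the cytokines. The cells had thus met IL-33 before and during culture. Poly(A)-selected RNA was sequenced, and the deposited files hold whole-number read counts for each gene. Of the 9 receptors, 8 had enough counts to be tested among 12239 genes, and Ccr9 did not.

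ILC2s are largely tissue-resident, and their position is set by opposing receptors. S1PR1, a G protein-coupled receptor for sphingosine 1-phosphate (S1P), draws lymphocytes out of tissue toward the S1P-rich lymph and blood, and CD69 binds S1PR1 in the same cell and takes it off the surface. CCR7 leads cells into lymphatic vessels and lymph nodes along CCL19 and CCL21, whereas CCR4, CCR8, CCR9, CXCR4 and CXCR6 answer to chemokines made in tissues, and CD44 anchors cells to hyaluronan and osteopontin in the matrix.

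Depth was 12438009 to 19534653 counts per library (Yoda1 against DMSO, p = 0.971 by an exact two-sided permutation test, where 4 against 4 allows no p under 0.0286), and 1 count was worth 0.0514 to 0.0807 CPM (CPM, read counts relative to the TMM-scaled size of the library). No 2 libraries of a group were alike within counting noise, and all 8 were kept. ILC2 markers were abundant as a sum, with 15 marker genes reaching 18763 to 19281 CPM in DMSO and 21066 to 21463 CPM in Yoda1. Most of it came from Il13, Il2ra and Il5, while Il17rb had means of 14.9 CPM in DMSO and 13.4 CPM in Yoda1. Of the 15 genes 7 rose and Icos fell at an adjusted p under 0.05 (edgeR), and Gata3 had a log2 fold change of 0.00020. This and the marker counts that follow stand beside 6.04% of all genes tested that rose and 4.84% that fell. For single genes, the groups did not overlap for 15.5% of all genes tested. Summed markers of other cells were lower. T cell markers summed to 89.4 to 95.7 CPM in DMSO and 98.0 to 108.8 CPM in Yoda1, ranges that did not overlap, with Cd28 alone of 8 past the threshold. NK or ILC1 markers summed to 784 to 864 and 843 to 911 CPM, mostly from Gzma and Prf1, and 3 of 7 rose (Eomes, Tbx21 and Prf1). The B cell (5.62 to 8.25 CPM over all libraries), ILC3 (1.21 to 1.95), dendritic cell (156 to 177, mostly H2-Ab1), macrophage (2.37 to 3.92) and mast cell or basophil (76.0 to 89.3, mostly Kit) sums had overlapping groups. Pax5, Cd209a, Mertk and Marco were at 0 counts in every library, and Zbtb46, a dendritic cell marker, fell from 5.39 to 3.95 CPM (edgeR adjusted p = 0.0335, not past the threshold with DESeq2). The part of these markers in the changes of the receptors was not tested, and in bulk RNA fewer cells of a type and less RNA per cell cannot be told apart.

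Yoda1 was followed by small changes of 4 of the 8 tested receptors. Cxcr4, Cd44 and Ccr8 rose by 13.01% to 17.0%, and S1pr1 fell by 12.4%, at an adjusted p under 0.05 (edgeR's quasi-likelihood test, Benjamini-Hochberg over all genes tested), while Cxcr6, Ccr7, Ccr4 and Cd69 did not pass. Of all genes tested, 10.9% passed this test, 6.04% as higher and 4.84% as lower in Yoda1. The receptors were chosen with earlier results of these data known, so their count is a description. The median log2 fold change of the 8 receptors was 0.027, beside -0.0053 for all genes, and the largest of them, 0.23 for Cxcr4, was about the median absolute change of the genes that passed. The groups did not overlap for 3 receptors (Cd44, S1pr1 and Ccr7), an arrangement found for 15.5% of all genes tested, 8.44% as higher (here Cd44) and 7.05% as lower (S1pr1 and Ccr7). Within a group the receptors varied by 2.09% to 7.27% (coefficient of variation), against 0.844% to 4.52% from counting alone. Whether samples of a group came from separate mice or cultures is not given in the sources used here, so p-values measure only the spread between these samples, which may be technical.

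**Figure D1:**
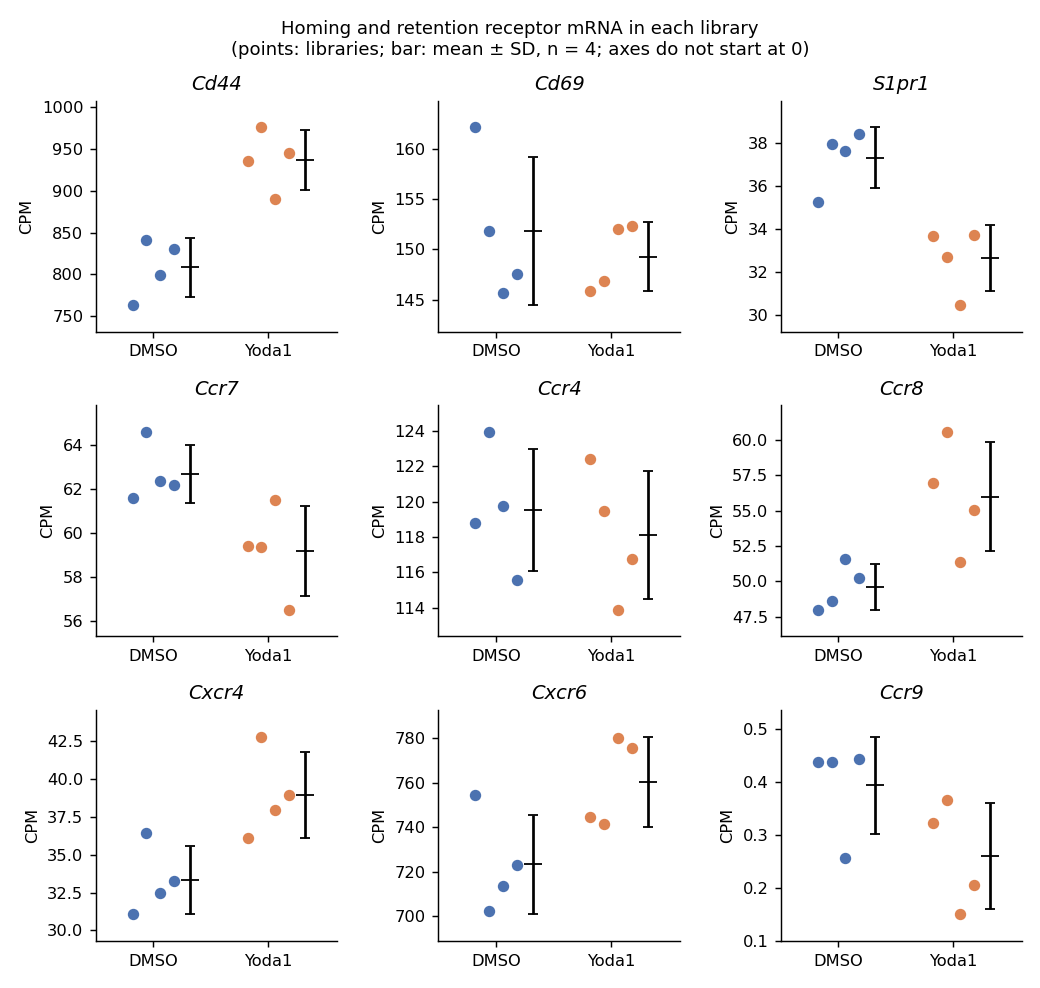
CPM of the 9 receptors in each library (points; blue, DMSO; orange, Yoda1) with the mean ± SD of each group (n = 4), each panel on its own linear axis that does not start at 0. All Yoda1 points lie above all DMSO points for Cd44 and below them for S1pr1 and Ccr7.

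Cd44 (GRCm38 chr2:102811141-102901665, minus strand, 19 exons in its principal transcript), the hyaluronan and osteopontin receptor that is also a marker of activated lymphocytes, was the receptor with the strongest evidence of change. DMSO libraries held 763.3, 841.3, 799.6 and 829.9 CPM, and Yoda1 libraries held 935.2, 975.4, 889.6 and 944.9 CPM. The lowest Yoda1 library thus lay above the highest DMSO library. The means were 808.6 ± 34.9 and 936.3 ± 35.6 CPM (SD, n = 4 each), a 15.8% increase with a log2 fold change of 0.21 (SE 0.037, 95% confidence interval 0.14 to 0.29, edgeR adjusted p = 0.000222). With 11229 to 18372 counts per library it ranked at the 98.9th percentile of tested genes by mean CPM. The call was kept in all 16 alternative fits, between 0.18 and 0.24. The study also measured CD44 protein by flow cytometry with DMSO and Yoda1. It reports no broad change of ILC2 markers except for CD25, CD127 and PD-1, and does not name CD44 among these. Protein and mRNA are unlike measures.

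Promoter sequence was found in a RefSeq table (build GRCm38.p6) for 6 of the 9 receptors, and the 250 bases before the RefSeq start are printed for those 3 that rose, to show what sequence stands before their starts. Capitals mark matches on either strand to short motifs of factors that act in activated lymphocytes. The NFAT core was searched as GGAAA and the KLF core as CACCC. The GATA motif was searched as AGATAA. The AP-1 motif was searched as TGANTCA, with any base in its middle. The cAMP response element was searched as TGACGTCA. No matches overlap in these 3 windows.
Cd44 (minus strand, chr2:102901666-102901915): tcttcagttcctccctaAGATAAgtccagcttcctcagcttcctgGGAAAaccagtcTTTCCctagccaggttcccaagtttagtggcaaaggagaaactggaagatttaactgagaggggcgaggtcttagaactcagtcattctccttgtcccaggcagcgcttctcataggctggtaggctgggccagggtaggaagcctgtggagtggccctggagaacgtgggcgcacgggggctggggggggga
Ccr8 (plus strand, chr9:120091883-120092132): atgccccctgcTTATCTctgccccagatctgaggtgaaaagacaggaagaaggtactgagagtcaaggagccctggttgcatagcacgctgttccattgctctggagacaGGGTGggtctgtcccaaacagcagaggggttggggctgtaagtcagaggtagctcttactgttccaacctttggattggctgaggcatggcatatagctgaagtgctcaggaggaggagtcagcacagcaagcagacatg
Cxcr4 (minus strand, chr1:128592300-128592549): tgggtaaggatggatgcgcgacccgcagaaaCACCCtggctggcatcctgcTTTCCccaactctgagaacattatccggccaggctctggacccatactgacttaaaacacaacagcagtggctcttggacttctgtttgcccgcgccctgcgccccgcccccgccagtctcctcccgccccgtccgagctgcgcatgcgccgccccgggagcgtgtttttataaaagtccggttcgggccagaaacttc
The Cd44 window held the NFAT core at 205 and 193 bases before the start and the GATA letters at 233. That of Ccr8 held the GATA letters at 239 and the KLF core at 140, and its last bases lie within the first exon as GENCODE draws it. Cxcr4 had the KLF core at 219 and the NFAT core at 199 bases. The windows not printed, of receptors that did not pass or were not tested, held matches too. That of Cxcr6 had the NFAT core at 210, 184 and 20 bases. Ccr4 had the NFAT core at 148, the AP-1 letters at 143 and the KLF core at 81, and Ccr9 the KLF core at 73. The NFAT and KLF cores were thus not particular to the receptors that rose. Of these 6 windows, only those of Cd44 and Ccr8 held the GATA letters, and only that of Ccr4 the AP-1 letters. S1pr1, Cd69 and Ccr7 had no window in the source used. Among 32851 promoter windows of the same length, 55.6% held the NFAT core, 52.0% the KLF core, 9.99% the GATA letters, 6.75% the AP-1 letters and 1.55% the cAMP response element. A match describes the letters only, and no binding was measured here.

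The mRNAs of the opposing retention and egress receptors Cd69 and S1pr1 were then compared. Surface S1PR1 and CD69 protein were not measured here. Cd69 (chr6:129267325-129275436, minus strand, 5 exons), an early activation marker, was at 162.1, 151.9, 145.7 and 147.5 CPM in DMSO and at 145.9, 146.8, 152.1 and 152.3 CPM in Yoda1. The groups overlapped throughout, and DMSO replicate 1 was the highest library. Its log2 fold change was -0.024 (SE 0.039, edgeR adjusted p = 0.763), with a 95% confidence interval from -0.10 to 0.056. Without DMSO replicate 1 the sign turned, to 0.0086.

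S1pr1 (chr3:115710433-115715072, minus strand, 2 exons), the egress receptor, was at 35.2, 38.0, 37.7 and 38.4 CPM in DMSO and at 33.7, 32.7, 30.4 and 33.7 CPM in Yoda1. Each Yoda1 library was below each DMSO library, by the narrowest margin against DMSO replicate 1. The means were 37.3 ± 1.42 and 32.6 ± 1.54 CPM (SD, n = 4 each), and the log2 fold change was -0.19 (SE 0.056, 95% confidence interval -0.31 to -0.076, edgeR adjusted p = 0.0257). S1pr1 was counted far less than Cd44, with 406 to 693 counts per library. Its call did not hold when any of 4 libraries was omitted (adjusted p = 0.0748, 0.0579 and 0.0656 without DMSO replicates 2, 3 and 4, and 0.0940 without Yoda1 replicate 3) and with DESeq2 (adjusted p = 0.0647), while its log2 fold change stayed between -0.22 and -0.16. The ratio of Cd69 to S1pr1 counts within a library was 4.08 ± 0.356 in DMSO and 4.58 ± 0.286 in Yoda1 (SD, n = 4 each), and the groups overlapped, since DMSO replicate 1 reached 4.60.

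Ccr7 (chr11:99144196-99155077, minus strand, 3 exons), the lymph node homing receptor, was at 61.6, 64.6, 62.3 and 62.2 CPM in DMSO and at 59.4, 59.4, 61.5 and 56.5 CPM in Yoda1. The groups did not overlap, but only barely, between DMSO replicate 1 and Yoda1 replicate 3. The difference of -5.74% was a log2 fold change of -0.085 (SE 0.045, 95% confidence interval -0.18 to 0.0072) and did not pass the threshold (unadjusted 0.0693, adjusted p = 0.240 by edgeR).

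Among the receptors for tissue chemokines, Ccr8 and Cxcr4 rose. Ccr8 (chr9:120092114-120094906, plus strand, 2 exons), the CCL1 receptor found on type 2 lymphocytes, was at 48.0, 48.6, 51.6 and 50.3 CPM in DMSO and at 57.0, 60.6, 51.4 and 55.0 CPM in Yoda1. Only Yoda1 replicate 3 fell within the DMSO range, just under DMSO replicate 3. The means were 49.6 ± 1.62 and 56.0 ± 3.85 CPM (SD, n = 4 each), a 13.01% increase (log2 fold change 0.18, SE 0.052, 95% confidence interval 0.071 to 0.28, edgeR adjusted p = 0.0242). The call was lost with upper-quartile scaling (adjusted p = 0.0625), without DMSO replicate 2 (0.0771), without Yoda1 replicate 1 (0.0678) and without Yoda1 replicate 2 (0.112, where the log2 fold change was 0.14).

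Cxcr4 (chr1:128588199-128592293, minus strand, 2 exons), the CXCL12 receptor that holds lymphocytes in bone marrow and inflamed tissue, was at 31.1, 36.4, 32.5 and 33.3 CPM in DMSO and at 36.1, 42.8, 37.9 and 38.9 CPM in Yoda1. Yoda1 replicate 1 alone overlapped the DMSO libraries, lying just under DMSO replicate 2. The means were 33.3 ± 2.25 and 38.9 ± 2.83 CPM (SD, n = 4 each), a 17.0% increase (log2 fold change 0.23, SE 0.061, 95% confidence interval 0.10 to 0.35, edgeR adjusted p = 0.0140). Without Yoda1 replicate 2, its highest library, the log2 fold change was 0.18 and the call was lost (adjusted p = 0.0749); in the other 7 fits that left out 1 library it was kept.

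Cxcr6 (chr9:123806475-123811760, plus strand, 2 exons), the receptor of the membrane-bound chemokine CXCL16 and a marker of resident lymphocytes, was at 754.5, 702.5, 713.6 and 722.9 CPM in DMSO and at 744.5, 741.6, 780.2 and 775.7 CPM in Yoda1. DMSO replicate 1 lay among the Yoda1 libraries, and the other DMSO libraries lay below all of them. The 5.14% difference had a log2 fold change of 0.072 (SE 0.035, 95% confidence interval 0.00075 to 0.14) and was not past the threshold over all genes (unadjusted 0.0478, adjusted p = 0.193 by edgeR).

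Ccr4 (chr9:114490316-114504916, minus strand, 2 exons), the CCL17 and CCL22 receptor of type 2 lymphocytes, was at 118.8, 123.9, 119.8 and 115.6 CPM in DMSO and at 122.4, 119.4, 113.9 and 116.8 CPM in Yoda1. The groups lay over each other, and the log2 fold change was -0.018 (SE 0.039, edgeR adjusted p = 0.825), with a 95% confidence interval from -0.098 to 0.062. Ccr9 (chr9:123678439-123784330, plus strand, 3 exons), the gut homing receptor for CCL25, had 7, 8, 4 and 6 counts in DMSO and 4, 6, 2 and 4 in Yoda1, too few to be tested. Its exons overlap those of Slc6a20a, Gm17200 and AC165425.1, and how the authors' counting split shared reads is not given in the sources used here. Of the 9 receptors, Ccr4, Ccr8, Ccr9 and Cxcr6 lie on chromosome 9, where Ccr8 passed the test, Ccr4 and Cxcr6 did not, and Ccr9 was not tested.

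**Figure D2:**
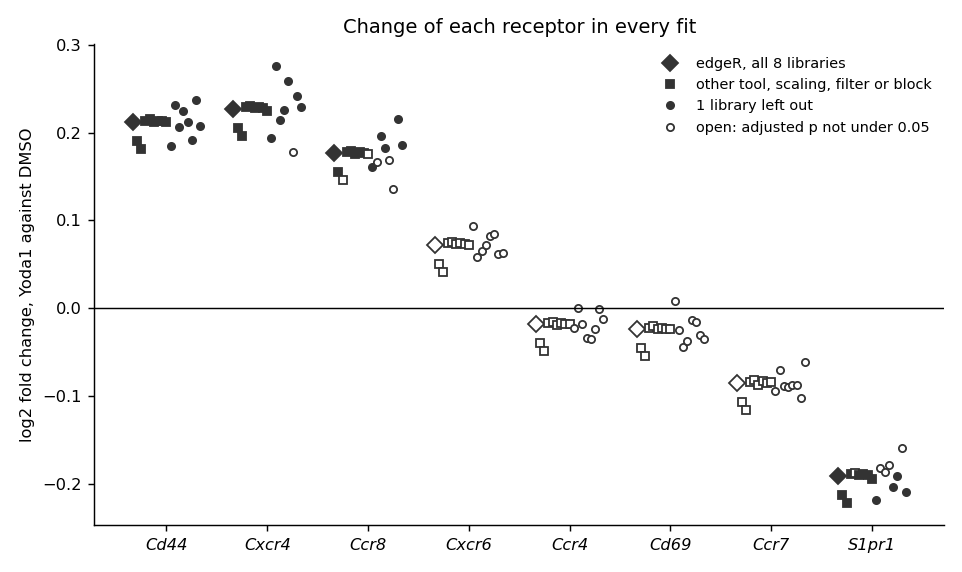
Log2 fold change of the 8 tested receptors (Yoda1 against DMSO) in the edgeR fit of all libraries (diamond), in fits with another tool, scaling, filter or a replicate block (squares) and with 1 library left out (circles), where open symbols mark an adjusted p not under 0.05. Cd44 is filled throughout, Cxcr4, Ccr8 and S1pr1 have open symbols among filled ones, and the other receptors are open throughout.

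Levels of the receptors were compared per kilobase of exon (RPKM, CPM divided by the length of all annotated exons). In DMSO the order was Cxcr6 (374.6 ± 11.6 RPKM), Cd44 (119.3 ± 5.15), Ccr8 (42.2 ± 1.38), Ccr4 (38.6 ± 1.11), Ccr7 (31.7 ± 0.661), Cd69 (23.3 ± 1.13), Cxcr4 (18.4 ± 1.24), S1pr1 (12.3 ± 0.468) and Ccr9 (0.0384 ± 0.00898; SD, n = 4 each), and no neighbours in that order overlapped. By mean CPM, which is not per length, Cd44 was at the 98.9th, Cxcr6 at the 98.6th and S1pr1 at the 55.7th percentile of tested genes. In Yoda1 the order was the same, but Cd69 (22.9 ± 0.522 RPKM) and Cxcr4 (21.5 ± 1.57) overlapped. With the length of the longest transcript in place of all exons, Ccr4 and Ccr8 exchanged places in DMSO, and Cd69 and Ccr7 did in Yoda1.

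**Figure D3:**
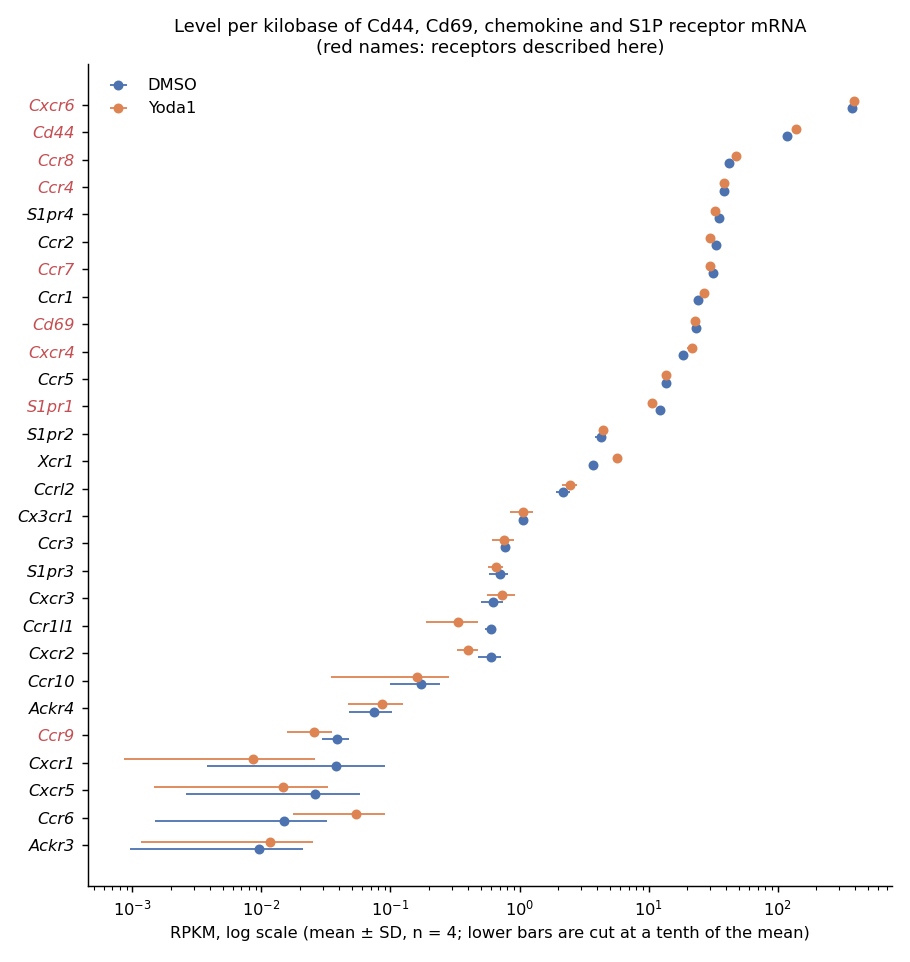
RPKM (log axis) of the 9 receptors (red names) and of other chemokine and S1P receptors in DMSO (blue) and Yoda1 (orange), as mean ± SD (n = 4; lower bars are shortened where they would reach 0 on the log axis). Cxcr6 at 374.6 RPKM and Cd44 at 119.3 RPKM in DMSO stand above every other receptor shown.

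The other genes of these pathways were examined in lists of known members. Over 106 further genes, 77 were tested, of which 11 rose and 4 fell. The share of all genes tested that passed was 10.9% (6.04% as higher, 4.84% as lower). It is the share beside which this count and those of each list below are to be read. The lists were chosen with earlier results of these data known, so these counts are descriptions and no test of the lists was run. Among 18 other chemokine receptors 9 were tested, and their median log2 fold change was 0.011. Xcr1, a receptor for XCL1, rose from 16.5 ± 0.568 to 25.5 ± 1.80 CPM (log2 fold change 0.63, edgeR adjusted p = 2.07e-07), and Ccr1 rose by 0.16 on the log2 scale (adjusted p = 0.0213, but 0.0503, 0.0787 and 0.0907 without DMSO replicate 1, DMSO replicate 3 and Yoda1 replicate 4). Ccr2, which brings cells out of the bone marrow, fell from 225 ± 7.75 to 203 ± 2.56 CPM (log2 fold change -0.15, adjusted p = 0.00654). Ackr3, the decoy receptor for the Cxcr4 ligand, had at most 1 count in any library.

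**Figure D4:**
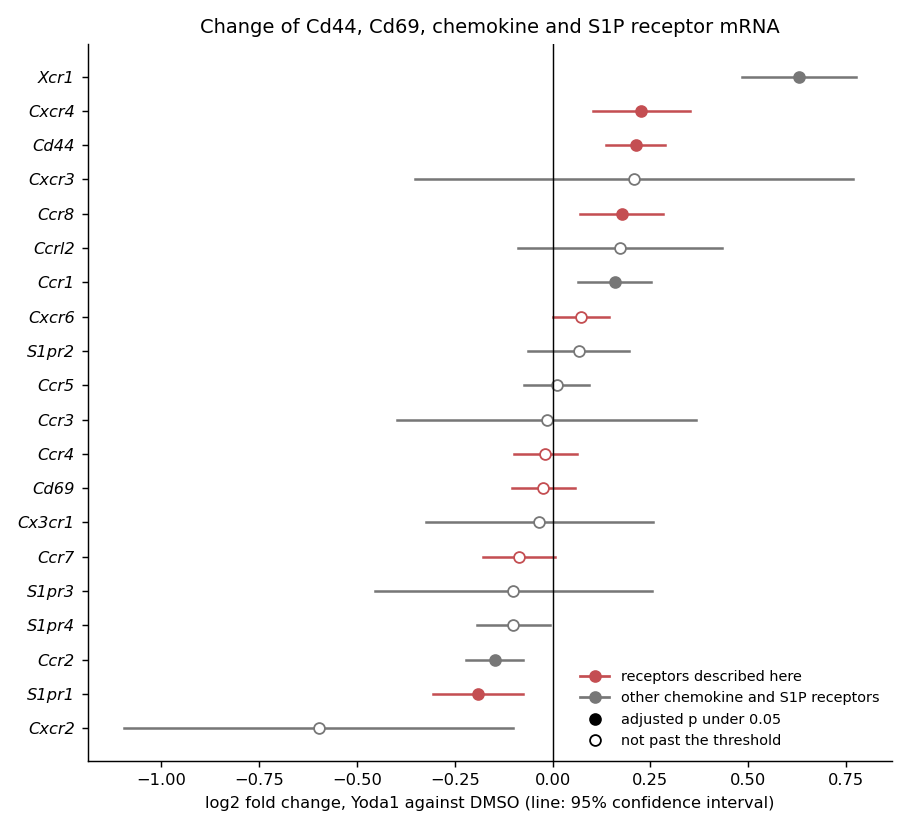
Log2 fold change (Yoda1 against DMSO) with its 95% confidence interval for Cd44, Cd69 and the tested chemokine and S1P receptors (red, the 9 receptors apart from Ccr9; grey, others; filled, adjusted p under 0.05). Xcr1 at 0.63 lies highest, and the filled points below 0 are S1pr1 at -0.19 and Ccr2 at -0.15.

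The chemokine ligands of the receptors had few counts in these libraries, and Ccl1, the ligand of Ccr8, had the most of the 9 listed. It was at 7.07, 8.60, 6.97 and 9.61 CPM in DMSO and at 22.8, 21.9, 22.6 and 20.01 CPM in Yoda1. Its means of 8.06 ± 1.27 and 21.8 ± 1.28 CPM (SD, n = 4 each) gave a log2 fold change of 1.44 (SE 0.093, edgeR adjusted p = 1.26e-12), so that ligand and receptor of this pair were both higher in Yoda1. Cxcl16 (25 to 50 counts) and Ccl25 (6 to 15 counts) had log2 fold changes of 0.18 and -0.37 that did not pass (adjusted p = 0.620 and 0.560). Ccl8, Cxcl12, Ccl19 and Ccl17 reached at most 1, 1, 2 and 4 counts in a library, Ccl22 had 1 to 12, and Ccl21a was at 0.

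Of 15 genes listed with CD44, 11 were tested, 3 rose and 0 fell, where 10.9% of all genes tested passed. The list took in ligands, linkers and sheddases of CD44, and also the selectin ligand gene Selplg. At an unadjusted p under 0.05, with DESeq2 and with limma-voom, 0 fell as well. The median log2 fold change was 0.054. Spp1, which encodes the CD44 ligand osteopontin, was at 291, 300.1, 314 and 352 CPM in DMSO. In Yoda1 it was at 465, 440.1, 494 and 485 CPM, with no overlap. The means of 314 ± 26.5 and 471 ± 23.9 CPM (SD, n = 4 each) differed by 0.58 on the log2 scale (SE 0.051, edgeR adjusted p = 4.93e-07). Adam10, a protease that cleaves CD44 from the surface, rose by 0.15 (adjusted p = 0.00886). Selplg, the selectin ligand PSGL-1, rose by 0.11 (adjusted p = 0.0289), a call kept in 1 of the 8 fits that left out 1 library, that without DMSO replicate 1, and lost in the other 7 (adjusted p = 0.0517 to 0.0913). Cd74, the gene of this list with the highest RPKM, had a log2 fold change of 0.0085 (adjusted p = 0.916).

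The S1P list (other S1P receptors, kinases, phosphatases, the lyase and transporters) had 9 of 11 genes tested and 0 past edgeR's threshold, likewise 0 with DESeq2 and with limma-voom, and 1 at an unadjusted p under 0.05 (S1pr4). S1pr4, the S1P receptor with the highest RPKM here (35.1 in DMSO, beside 12.3 for S1pr1), had a log2 fold change of -0.10 (SE 0.046, adjusted p = 0.163), and the S1P lyase gene Sgpl1 one of 0.067 (adjusted p = 0.350). Of the other chemoattractant receptors, 5 of 12 were tested and 0 passed with edgeR, DESeq2 or limma-voom, nor did any at an unadjusted p under 0.05. Ltb4r1 and Cysltr1, the leukotriene receptors with the highest RPKM of that list, had log2 fold changes of -0.041 and 0.028 (adjusted p = 0.565 and 0.689).

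Of 16 regulators of egress and residency, 15 were tested, 4 rose and 2 fell, where 10.9% of all genes tested passed. Their median log2 fold change was 0.10. Klf2, a transcription factor known to activate S1pr1 in lymphocytes, rose from 7.50 ± 0.812 to 11.996 ± 0.608 CPM (log2 fold change 0.67, adjusted p = 1.89e-05), the opposite direction to S1pr1. Foxo1, an activator of Klf2 and Ccr7, had a log2 fold change of -0.13 (adjusted p = 0.104). The activation-induced genes Nr4a1 (log2 fold change 0.75, adjusted p = 2.36e-11) and Rgs2 (0.61, adjusted p = 5.19e-08) rose, as did Bhlhe40, a residency factor (0.16, adjusted p = 0.00295). Tcf7 fell by 0.42 on the log2 scale (adjusted p = 0.0134, but 0.0559 without Yoda1 replicate 1), and Runx3, which promotes tissue residency in T cells, fell by 0.18 (adjusted p = 0.00111).

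Of 27 genes that transmit or end chemokine receptor signals, all tested, 2 rose, 1 fell and 24 did not pass. This count was near the share of all genes tested that passed, 10.9%. The median log2 fold change of the list was -0.0054. Rgs16, which speeds the shut-off of G proteins below chemokine receptors, was at 50.6, 48.9, 52.7 and 55.4 CPM in DMSO and at 138, 121, 138 and 138 CPM in Yoda1, a log2 fold change of 1.37 (SE 0.049, edgeR adjusted p = 5.92e-19). Rgs2, the other gene that rose, is also in the list above. Rgs1, named from the egress and residency list and higher in CPM than Rgs2 and Rgs16, had a log2 fold change of 0.10 (adjusted p = 0.0594). Cdc42, which sets cell polarity, had a log2 fold change of 0.0094 (adjusted p = 0.902). Coro1a, which encodes an actin-binding protein needed for lymphocyte egress, fell by 0.12 (adjusted p = 0.0445), a call lost without DMSO replicate 1 or 2 and without Yoda1 replicate 1, 2 or 4 (adjusted p = 0.0746 to 0.203).

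The genes whose log2 CPM followed each changed receptor most closely over the 8 libraries were named among 8807 genes with a mean of at least 10 CPM, as a description, since all share these libraries and the 2 groups. For Cd44 they were Baz1a (Pearson's r = 0.993) and Npepps (0.988), and for S1pr1 they were Tanc1 (0.980) and Gbp5 (0.979). Ccr8 was followed by Wdr26 (0.978) and Rlf (0.972), and Cxcr4 by Anxa11 (0.981) and Bcl2l11 (0.951).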

How the data were processed

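Bulk mRNA-seq of 8 libraries (4 DMSO, 4 Yoda1) was analysed; groups came from the sample labels. The authors deposited raw counts of reads per gene symbol, 1 table per library. In their methods, reads of a directional kit were checked with FastQC, then run through FASTX Trimmer and BBMap before Cufflinks and Cuffdiff, and the submitters' processing notes name TopHat and mm10. The counter, annotation and strand setting are not given in the sources used here, so a gene and its antisense partner may share reads.

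Low genes were removed by filterByExpr (10 counts, total of 15), and the counts were scaled by TMM and tested with edgeR 4.0.16 (robust quasi-likelihood, R 4.3.3) with Benjamini-Hochberg adjustment at 0.05 over 12239 genes. The standard error is the absolute log2 fold change over the root of F, and 95% intervals use t with edgeR's degrees of freedom. CPM used TMM-scaled totals, and RPKM used exon lengths of GENCODE M21 (GRCm38), found for 98.2% of genes. Alternatives were library totals, upper-quartile or DESeq2 factors, DESeq2 1.42.0, limma-voom (limma 3.58.1), no filter, at least 10 counts in every library, a replicate block, each library left out, and, for RPKM, the longest transcript. Counting intervals cover counting error only.

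The receptors and gene lists were chosen with earlier results of these data known. From each list the text names genes past the threshold (at most the 5 with the largest change), the 2 with the highest mean RPKM, and ligands or regulators paired with a receptor; markers are named as list members, and 1 gene of this rule is not reported here. Grk2 was listed as Adrbk1, and Zfp683 was not found by symbol.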

Additional observations from a re-analysis of the deposited data

Results flagged for a closer look

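Of 75 sets of 4 values examined (a named gene in a group, though not every such set), 3 had a lowest or highest library far from its group, where chance gives about 3.75. Ccr9 was low in DMSO replicate 3, at 0.256 CPM against 0.438 CPM in the next library, a difference of a few counts. Ltb4r1 was high in Yoda1 replicate 3, at 259.6 CPM against 246.7 CPM in the next. Rgs16 was low in Yoda1 replicate 2, at 121.3 CPM against 137.7 CPM, and that library was still above every DMSO library.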

How the results depend on the processing

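Replicate numbers did not pair the samples (deviations of same-numbered samples correlated at -0.028 to 0.071, those of others at -0.12 to 0.077, and 3 of 8 samples correlated best with their own number). With the replicate number as a block, 966 genes changed (548 higher, 418 lower) in place of 1331, with 3 of the 9 receptors and 13 in place of 15 other pathway genes, and Ccr8 no longer passed (log2 fold change 0.17, adjusted p = 0.0615); Coro1a (0.126) and Selplg (0.0882) did not pass either. Over all genes, 739 were higher and 592 lower; upper-quartile factors gave 505 and 958, library totals 553 and 809, and DESeq2 625 and 372. Leaving out each library gave 367 to 677 lower genes, lowest without DMSO replicate 2, and 374 without Yoda1 replicate 4. It left 2 to 4 changed receptors, 2 without DMSO replicate 2 or Yoda1 replicate 2. Other scalings moved the median log2 fold change of all genes by -0.031 to 0.0020. S1pr1 did not pass with DESeq2 (log2 fold change -0.19), nor Ccr8 with upper-quartile factors (0.15). Left-out libraries gave -0.22 to -0.16 for S1pr1, 0.14 to 0.21 for Ccr8, 0.18 to 0.28 for Cxcr4 and -0.044 to 0.0086 for Cd69. Genes near 0 turned sign: with library totals and upper-quartile factors, Cd74 was at -0.013 and -0.022, Cdc42 at -0.012 and -0.021, and Gata3 at -0.021 and -0.031, and Cysltr1 was at -0.0023 with upper-quartile factors. Left-out libraries gave -0.0049 to 0.027 for Cd74, -0.0043 to 0.026 for Cdc42 and -0.031 to 0.032 for Gata3. Ccr1 (0.0603) and Selplg (0.124) did not pass with upper-quartile factors, nor Selplg with library totals (0.0812) or Coro1a with DESeq2 (0.0521). Foxo1 passed with upper-quartile factors (0.0397) and without DMSO replicate 1 (0.0342), and Rgs1 with DESeq2 (0.0369) and without a filter (0.0424). The cause of these shifts was not tested. A receptor with fewer counts, such as S1pr1 or Cxcr4, varies by up to 4.52% from counting alone, and Ccr9 could not be compared at this depth.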
